A study of Mus musculus with 4 samples.

Results

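The genes described here encode ATP-dependent chromatin remodellers of the SWI/SNF, CHD and ISWI families, the enzymes that slide, space or evict nucleosomes, together with 3 related SNF2-like genes. The set was a fixed list of 36 symbols, and all 36 were found by symbol among 21887 protein-coding genes of the RefSeq table for GRCm38.p6, which shares its coordinates with mm10. Binding was profiled by CUT&Tag with a Ruvbl2 antibody, a method in which an antibody steers a transposase to chromatin, in sorted mouse bone marrow cells. Leukaemia stem cells (LSC) were CD34+CD16/32+c-Kit+ cells without lineage markers or Sca-1, from Nup214fl/+ mice whose leukaemia was driven by the MLL-AF9 fusion. Haematopoietic stem cells (HSC) were the CD150+CD48- fraction of LSK cells, from Nup214fl/+ mice without the fusion. Both groups therefore carried a floxed allele of Nup214, and neither is labelled with a Cre. The LSC gate also fits granulocyte-monocyte progenitors, so maturation and leukaemia cannot be told apart. There were 2 libraries a group, which are told apart by their titles, since the cell type label reads hematopoietic stem cell for all 4. The protocol gives 2000 to 5000 cells a library, naming HSCs, and does not say whether libraries came from separate animals.

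In mammals the SWI/SNF ATPases are Smarca4 (BRG1) and Smarca2 (BRM), which work in BAF, PBAF and non-canonical BAF complexes that share some of their subunits. CHD remodellers carry paired chromodomains, and Chd3 and Chd4 are the ATPases of the NuRD complex. ISWI complexes join Smarca5 (SNF2H) or Smarca1 (SNF2L) to a large partner such as Bptf, Baz1a or Baz1b and set the spacing of nucleosomes. Ruvbl2, the antibody's target, is an AAA+ ATPase of the INO80 family of complexes and is a subunit of none of these. In mouse models of MLL-AF9 leukaemia, Smarca4 and Brd9 are known as genes the leukaemia cells depend on.

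The deposited lists held 216077 and 210541 peaks in LSC replicates 1 and 2 and 161655 and 286107 in HSC replicates 1 and 2. Depth is unknown, because peak lists carry no read totals, and peaks were ranked by −log10 p within each library. The 20000 strongest peaks of a library are called listed, and a gene is listed when such a peak overlaps its body or 1 kb on either side. The weakest listed peak had a fold over background of 28.4 and 18.2 in LSC replicates 1 and 2 and of 22.7 and 12.7 in HSC replicates 1 and 2; fold is the authors' value of a peak within its own library and is not compared between libraries. Replicate 1 libraries shared a peak naming scheme, held 94.2 (LSC) and 91.8 (HSC) Y chromosome peaks per 10000 and had narrower listed peaks (median 371 and 484 bp). The replicate 2 libraries held 1.24 (LSC) and 0.561 (HSC) Y chromosome peaks per 10000, with listed peaks of 634 and 714 bp at the median. No control library is named in the labels. Their protocol uses an anti-rabbit secondary antibody without giving the host of the Ruvbl2 antibody, so how far a peak depends on Ruvbl2 was not tested. Peaks are not expression and give a weak check of cell type: of 8 HSC marker genes 3 and 4 were listed in LSC and 3 and 4 in HSC, and of 8 markers of the LSC gate 3 and 4 were listed in LSC and 4 and 6 in HSC. Procr and Slamf1, defining HSC genes, were listed in no library.

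The start sites below are shown because the results return to them. Brd9 is the start that overlapping listed peaks of all 4 libraries cover. Arid1a has 2 annotated starts that are 2784 bp apart. Smarca4 and Baz1b had strong start peaks in every library but HSC replicate 1. Chd4 is the start with listed peaks nearby in both LSC libraries and neither HSC library, but only that of LSC replicate 2 overlaps the window shown. Each line gives the RefSeq window from 250 bases before to 50 after the start on GRCm38.p6, 5′ to 3′ on the gene's strand. Capitals mark matches on either strand to the motifs GGGCGG (SP/KLF GC box), CCGGAAG (ETS), GCGC and GCGC with 2 free bases between them (NRF1), AANATGGC (YY1), CCAAT and TATAAA, and neighbouring or overlapping matches run together. The windows are chr13:73937561-73937860 on the plus strand for Brd9, chr4:133756720-133757019 and chr4:133753936-133754235 on the minus strand for the outer and inner start of Arid1a, chr9:21615919-21616218 on the plus strand for Smarca4, chr5:135187073-135187372 on the plus strand for Baz1b and chr6:125095913-125096212 on the plus strand for Chd4.
Brd9: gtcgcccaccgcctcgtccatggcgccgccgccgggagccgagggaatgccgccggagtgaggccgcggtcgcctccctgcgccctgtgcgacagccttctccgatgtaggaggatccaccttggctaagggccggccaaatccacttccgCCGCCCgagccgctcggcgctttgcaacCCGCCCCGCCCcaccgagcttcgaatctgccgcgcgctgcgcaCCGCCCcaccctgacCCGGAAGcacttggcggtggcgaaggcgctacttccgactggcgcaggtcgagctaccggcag
Arid1a outer start: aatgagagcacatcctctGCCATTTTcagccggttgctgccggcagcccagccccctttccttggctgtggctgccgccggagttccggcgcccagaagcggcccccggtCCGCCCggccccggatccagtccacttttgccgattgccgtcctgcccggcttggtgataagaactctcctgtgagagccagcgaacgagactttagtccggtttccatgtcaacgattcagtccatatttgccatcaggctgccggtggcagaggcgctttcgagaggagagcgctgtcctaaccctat
Arid1a inner start: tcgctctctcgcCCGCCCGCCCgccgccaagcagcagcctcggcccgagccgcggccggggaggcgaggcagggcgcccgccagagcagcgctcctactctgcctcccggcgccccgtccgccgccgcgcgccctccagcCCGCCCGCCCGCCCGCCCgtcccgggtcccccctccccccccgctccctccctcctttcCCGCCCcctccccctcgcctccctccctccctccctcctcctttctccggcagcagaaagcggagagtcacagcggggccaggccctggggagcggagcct
Smarca4: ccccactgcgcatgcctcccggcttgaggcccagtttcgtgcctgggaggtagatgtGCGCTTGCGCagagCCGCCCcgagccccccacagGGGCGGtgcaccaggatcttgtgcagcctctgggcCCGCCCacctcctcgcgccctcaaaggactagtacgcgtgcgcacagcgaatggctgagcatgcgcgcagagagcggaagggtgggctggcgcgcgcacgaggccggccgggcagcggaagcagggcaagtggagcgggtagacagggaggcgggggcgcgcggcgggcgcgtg
Baz1b: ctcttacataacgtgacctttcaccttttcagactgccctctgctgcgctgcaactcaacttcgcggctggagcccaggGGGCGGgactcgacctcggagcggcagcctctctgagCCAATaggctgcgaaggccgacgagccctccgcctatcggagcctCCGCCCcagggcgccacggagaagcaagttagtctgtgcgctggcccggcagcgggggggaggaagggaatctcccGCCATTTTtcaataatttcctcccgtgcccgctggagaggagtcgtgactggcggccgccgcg
Chd4: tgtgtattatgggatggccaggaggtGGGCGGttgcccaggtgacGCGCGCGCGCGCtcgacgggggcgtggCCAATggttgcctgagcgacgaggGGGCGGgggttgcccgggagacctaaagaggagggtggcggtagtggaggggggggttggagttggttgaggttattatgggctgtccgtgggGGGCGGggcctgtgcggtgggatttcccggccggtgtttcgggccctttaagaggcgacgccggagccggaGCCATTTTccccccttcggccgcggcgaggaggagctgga

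These windows are rich in CpG. Brd9 held 40 CpG, 4 GC boxes and 1 ETS match. The outer Arid1a window held 22 CpG and the inner one 36, with 7 GC boxes. Smarca4 held 33 CpG and an NRF1 match, Baz1b 27 CpG and a YY1 match, and Chd4 29 CpG with 2 overlapping NRF1 matches and a YY1 match. Promoter entries were available for 28 of the 36 genes (33 windows), and Smarce1, Ss18, Arid2, Chd1, Chd2, Chd3, Chd7 and Baz1a had no entry. The median GC content was 66.0% over the 33 windows, beside 56.3% over 21263 windows of all protein-coding genes, and the ratio of observed to expected CpG was 0.902 beside 0.567. The GC box was present in 28 of 33 windows (84.8%), beside 46.2% of all windows. YY1 and NRF1 matches were each present in 7 of 33 (21.2%), beside 6.37% and 8.57% of all windows. ETS matches were in 5 (15.2% beside 11.6%), CCAAT in 10 (30.3% beside 38.2%) and TATAAA in 1 (3.03% beside 12.6%). Composition overlapped between starts with and without a peak: the median GC content was 68.2% in the 16 windows that a listed peak of any library overlapped and 65.7% in the 17 others, and Phf10, with no peak over its window, had the highest value of all at 87.0%.

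Remodeller genes were listed more often than the average gene in every library. In LSC replicates 1 and 2, 19 and 19 of the 36 were listed, against 32.3% and 41.2% of the 21887 genes. In HSC replicates 1 and 2, 18 and 28 were listed, against 30.2% and 41.2%. The best peak of a remodeller gene had a median rank of 12183 and 8746 in LSC replicates 1 and 2 and of 22246 and 7315 in HSC replicates 1 and 2. Over all genes, the median was 49930 and 31379 in LSC and 56827 and 32132 in HSC. In all 4 libraries 11 genes were listed (30.6%, beside 11.3% of all genes): Smarca2, Smarca4, Arid1a, Arid1b, Brd9, Chd2, Chd6, Chd7, Chd9, Bptf and Baz2a. In no library were 5 listed (13.9%, beside 35.6%): Smarce1, Phf10, Chd3, Smarca1 and Hells. Another 6 were listed in 1 library, 8 in 2 and 6 in 3. Peaks of any strength lay at 35 and 36 genes in LSC and 34 and 36 in HSC, against 79.4% and 82.4% of all genes in LSC and 73% and 85% in HSC. In all 4 libraries 33 genes had one (against 61.2%): Smarcd1 and Smarce1 had none in HSC replicate 1 and Smarca1 had none in LSC replicate 1.

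**Figure D1:**
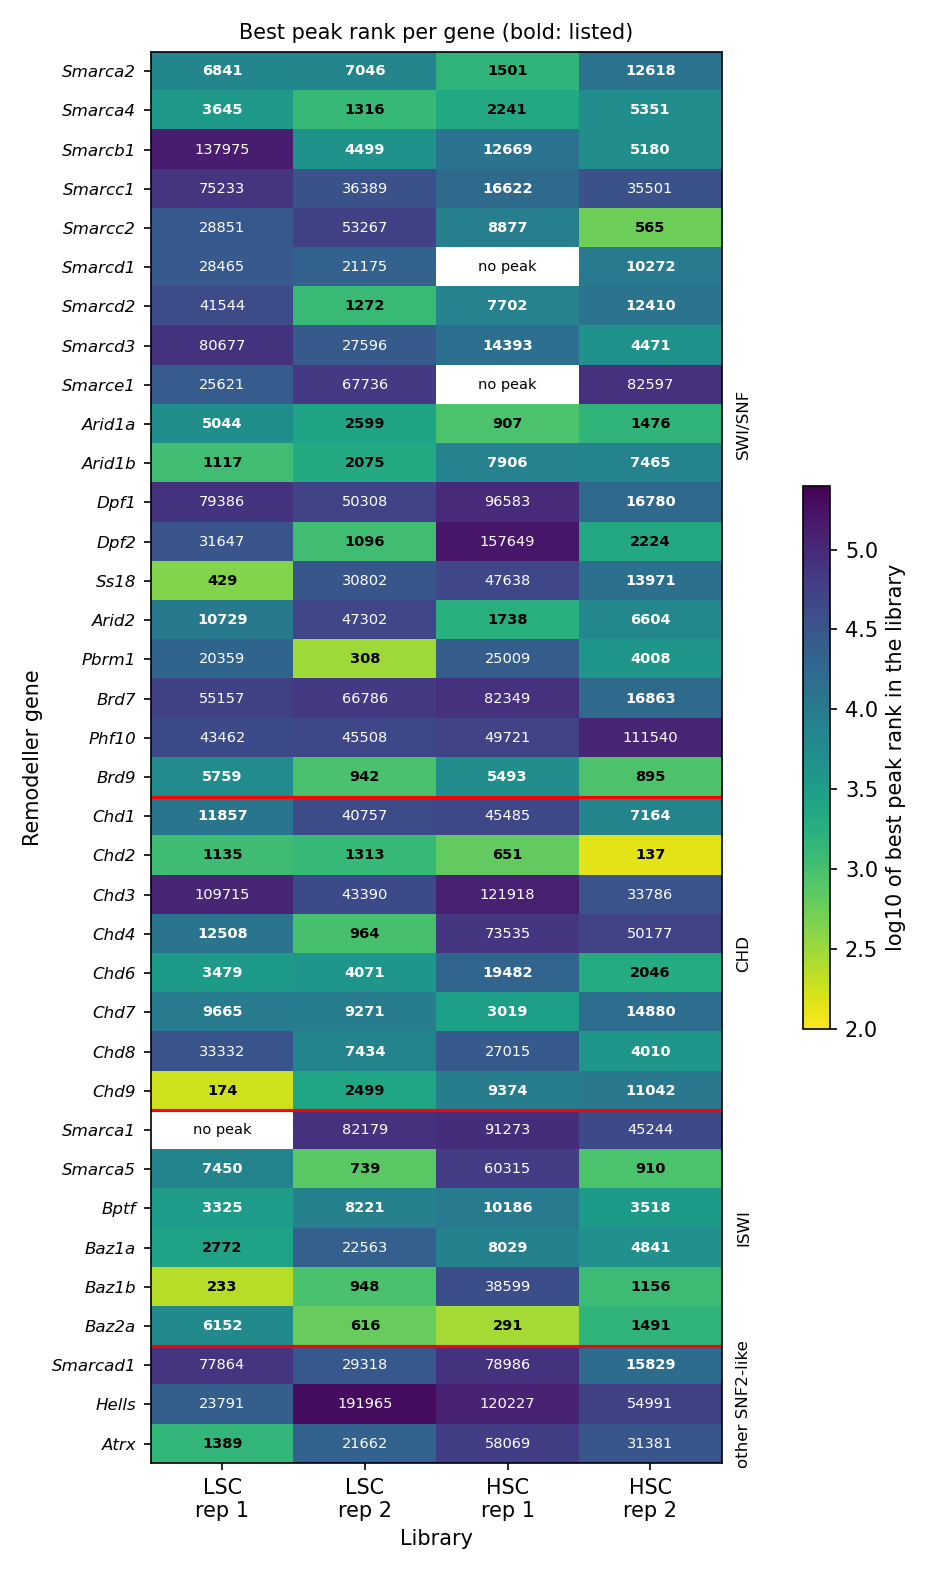
Rank of the strongest peak at each of the 36 genes (rows, by family) in the 4 libraries (columns), coloured by log10 rank, with listed ranks (20000 or better) in bold. Smarca4, Arid1a, Brd9, Chd2 and Baz2a are at rank 6152 or better in every library, while Smarce1, Phf10, Chd3, Smarca1 and Hells are beyond rank 20000 throughout.

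Gene length moved with these counts. The remodeller genes had a median length of 59.4 kb, beside 17.2 kb over all protein-coding genes, and the 11 genes listed in all 4 libraries had a median of 115 kb. Among the 20 remodeller genes of at least 50 kb, 9 (45.0%) were listed in all 4 libraries, beside 27.7% of all genes of that length. Among the 16 shorter ones the count was 2 (12.5%, Brd9 and Baz2a), beside 6.54%. In both length classes the share was therefore above that of all genes of the class, but by less than in the comparison without classes. Listed peaks numbered 2.04 and 1.80 per 100 kb of remodeller gene in LSC replicates 1 and 2, beside 1.09 and 1.32 over all genes. The HSC values were 1.29 and 1.73 per 100 kb, beside 1.02 and 1.32. At the gene ends alone (1 kb on each side of either annotated end), 7 and 14 of 36 were listed in LSC and 6 and 17 in HSC, beside 11% and 25.5% of all genes in LSC and 10.6% and 25.1% in HSC. Brd9 and Baz2a alone were listed at an end in all 4 libraries (5.56%, beside 2.91%). At the ends, 0 genes were listed in both LSC libraries alone (beside 0.932%) and 0 in both HSC libraries alone (beside 0.873%).

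**Figure D2:**
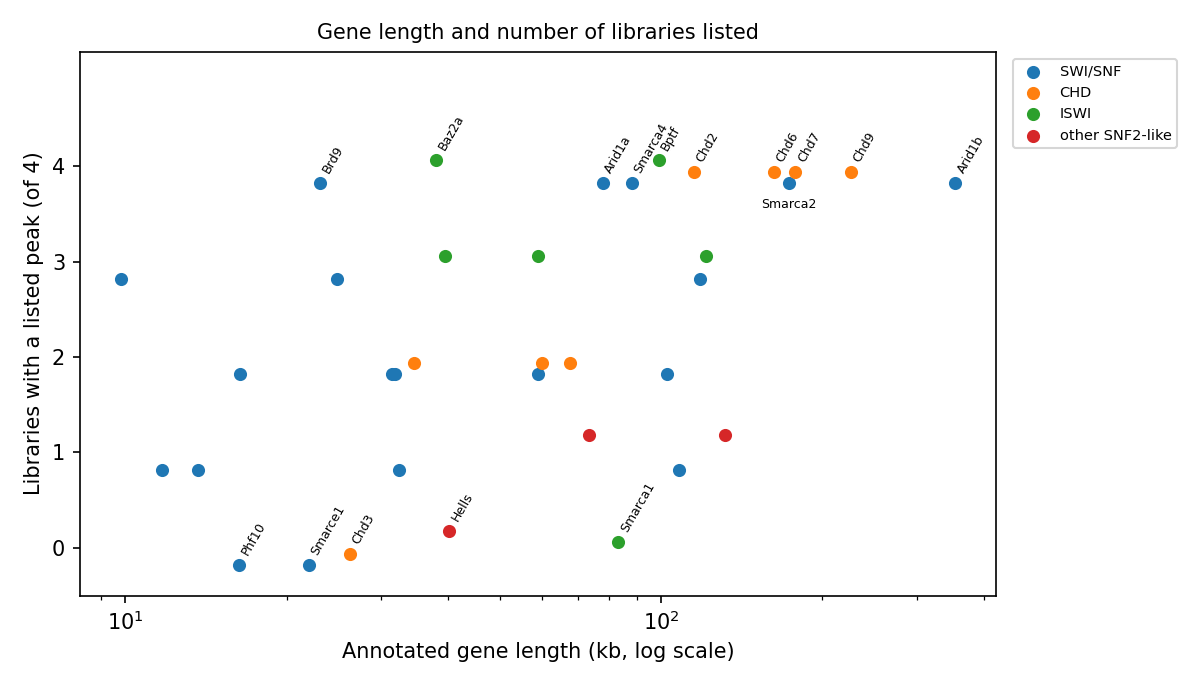
Annotated gene length (x, kb, log scale) against the number of libraries in which the gene is listed (y, points shifted slightly by family). The 11 genes listed in all 4 libraries range from 23.1 kb (Brd9) to 353 kb (Arid1b), and the 5 listed in none from 16.3 kb (Phf10) to 83.2 kb (Smarca1).

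By family, the counts of listed genes separated the cell types for SWI/SNF alone, and whether the families differ in this was not tested. Median gene length was 31.8 kb for SWI/SNF, 91.4 kb for CHD, 71.0 kb for ISWI and 73.5 kb for the SNF2-like genes. Of the 19 SWI/SNF genes, 7 and 9 were listed in LSC (36.8% and 47.4%), against 11 and 16 in HSC (57.9% and 84.2%). Both LSC counts thus lay below both HSC counts. The shares over all genes, 32.3% and 41.2% in LSC and 30.2% and 41.2% in HSC, overlapped between the cell types. Of the 8 CHD genes, 6 and 6 were listed in LSC (75.0% each), against 4 and 6 in HSC (50.0% and 75.0%). Of the 6 ISWI genes, 5 and 4 were listed in LSC (83.3% and 66.7%), against 3 and 5 in HSC (50.0% and 83.3%). The SNF2-like genes Smarcad1, Hells and Atrx numbered 1 and 0 listed in LSC (33.3% and 0%) and 0 and 1 in HSC (0% and 33.3%). For the CHD, ISWI and SNF2-like groups the LSC and HSC counts overlapped. Listed peaks per 100 kb of gene gave another picture. For SWI/SNF they were 2.00 and 1.70 in LSC and 1.41 and 1.85 in HSC, which overlap. For CHD they were 2.14 and 2.37 in LSC and 1.47 and 1.47 in HSC, so LSC was higher. Over all genes they were 1.09 and 1.32 in LSC and 1.02 and 1.32 in HSC. ISWI (2.66 and 1.99 in LSC, 1.33 and 2.66 in HSC) and SNF2-like genes (0.795 and 0 in LSC, 0 and 0.398 in HSC) overlapped. The SWI/SNF separation in gene counts rested on the 7 genes grouped as core subunits. Of the other 12 SWI/SNF genes, 7 and 7 were listed in LSC (58.3% each), against 6 and 11 in HSC (50.0% and 91.7%), which overlap.

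**Figure D3:**
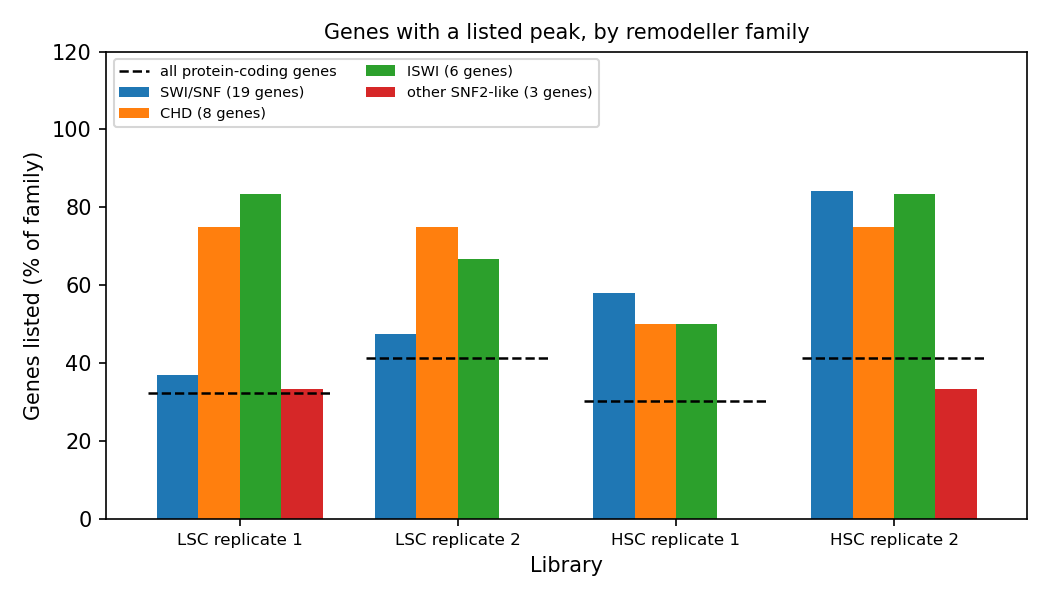
Share of each family's genes with a listed peak (y, %) in LSC and HSC libraries (x), with the share of all protein-coding genes as a dashed line. SWI/SNF stands at 36.8% and 47.4% in LSC and at 57.9% and 84.2% in HSC, and CHD at 75.0% in every library but HSC replicate 1 (50.0%).

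Both SWI/SNF ATPases were listed in every library. Smarca4 had its strongest peak at rank 3645 and 1316 in LSC replicates 1 and 2 and at rank 2241 and 5351 in HSC replicates 1 and 2, with folds of 67.0 and 44.9 in LSC and 50.3 and 17.97 in HSC. In LSC and in HSC replicate 2 this was the same site, 3 mutually overlapping peaks over the start with summits at -111 and -393 bp in LSC and -337 bp in HSC replicate 2, negative values lying before the start (chr9:21615572-21616453). HSC replicate 1 had no peak of any strength there, and its strongest peak lay 8720 bp into the gene. Smarca2 stood at rank 6841 and 7046 in LSC and 1501 and 12618 in HSC, but at 4 different places. Only in LSC replicate 2 did the strongest Smarca2 peak lie at the start, with its summit at -142 bp.

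The 7 genes grouped here as core subunits were singled out after their values were seen. The grouping does not mean that BAF, PBAF and non-canonical BAF all hold each of them. Of the 7 core genes, 0 and 2 (0% and 28.6%) were listed in LSC, beside 32.3% and 41.2% of all genes, and 5 and 5 (71.4% each) in HSC, beside 30.2% and 41.2%. Smarcc2, a scaffold subunit, had best ranks of 28851 and 53267 in LSC and 8877 and 565 in HSC. It was thus listed in both HSC libraries and in neither LSC library, but the strongest HSC peaks lay apart. That of HSC replicate 2 (rank 565, chr10:128491544-128494273) runs past the gene end towards Myl6 and Myl6b. HSC replicate 2 also had a listed peak inside the gene (chr10:128487987-128488689, rank 3325), where no other library had a peak of any strength. The rank 565 region was overlapped by peaks of LSC replicates 1 and 2 at ranks 7103 and 301 and by an unlisted HSC replicate 1 peak at rank 21704. These LSC peaks lay beyond the 1 kb flank, starting at 128493618 and 128492618 beside a gene end at 128490591. With a 3000 bp flank the LSC replicate 2 peak was counted, so Smarcc2 was no longer an HSC-only gene. The LSC replicate 1 peak still began outside that flank. Smarcd3 (BAF60C) had best ranks of 80677 and 27596 in LSC and 14393 and 4471 in HSC, and its HSC peaks were again at different places. Smarcb1 (SNF5) ranked 137975 and 4499 in LSC and 12669 and 5180 in HSC. Its replicate 2 peaks covered the start in both cell types, with summits at -78 (LSC) and -32 bp (HSC). An end of Mmp11 also lay in that region or within 1 kb of it. Smarcd2 ranked 41544 and 1272 in LSC and 7702 and 12410 in HSC, Smarcd1 28465 and 21175 in LSC and 10272 in HSC replicate 2, and Smarcc1 75233 and 36389 in LSC and 16622 and 35501 in HSC. The listed regions of Smarcd2 likewise had an end of Tcam1 in them or within 1 kb, and that of Smarcd1 an end of Asic1. Smarce1 stayed unlisted, with 25621 and 67736 in LSC and 82597 in HSC replicate 2. The separation of the core counts was lost under other settings. With the 10000 strongest peaks they were 0 and 2 in LSC and 2 and 3 in HSC, and with the 40000 strongest 3 and 5 in LSC and 5 and 6 in HSC. With the full lists they were 7 and 7 in LSC and 5 and 7 in HSC, so LSC was not the lower group there. At the gene ends they were 0 and 2 in LSC and 1 and 5 in HSC.

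Among the genes grouped as BAF-type subunits, which need not be absent from the other complexes, the ARID genes Arid1a and Arid1b were listed throughout. Arid1a ranked 5044 and 2599 in LSC and 907 and 1476 in HSC. Its start region (chr4:133754149-133758494 as merged) held listed peaks in all 4 libraries. Between the strongest peaks of each library there, only 3 of the 6 pairs overlapped. A second listed peak of HSC replicate 1 (rank 13472) overlapped those of LSC replicate 2 and HSC replicate 2. In the replicate 1 libraries the strongest peak had its summit at -361 (LSC) and -379 bp (HSC) from the inner start. In HSC replicate 2 it was at -710 bp from the outer start. The inner window held a listed peak in both replicate 1 libraries and in neither replicate 2 library. The outer window held one in LSC replicate 2 (rank 3678) and in HSC replicates 1 and 2 (ranks 13472 and 1476). Arid1b, the longest of the genes at 353 kb, ranked 1117 and 2075 in LSC and 7906 and 7465 in HSC, with 13 and 10 listed peaks in LSC and 6 and 6 in HSC. None of these covered its annotated start window, and an intragenic site (chr17:5183849-5184329) was listed in both LSC libraries at ranks 9568 and 18442 with no HSC peak of any strength. Dpf2, a histone-reading subunit, ranked 31647 and 1096 in LSC and 157649 and 2224 in HSC, so its start peak was listed in both replicate 2 libraries and neither replicate 1 library. Ss18 was listed at rank 429 in LSC replicate 1 and 13971 in HSC replicate 2, and Dpf1 at 16780 in HSC replicate 2 alone.

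Brd9, the bromodomain subunit of non-canonical BAF, was the one gene whose start was covered by mutually overlapping listed peaks of all 4 libraries. It ranked 5759 and 942 in LSC and 5493 and 895 in HSC, with folds of 55.3 and 50.6 in LSC and 39.9 and 34.1 in HSC. Brd9 has 2 annotated starts that are 17 bp apart. All 4 peaks overlapped each other there, and their summits lay 84 and 251 bp (LSC) and 81 and 92 bp (HSC) downstream of the nearer start. From the other start, whose window is shown above, they lay 101 and 268 bp (LSC) and 98 and 109 bp (HSC) downstream. The peaks of LSC and HSC at the same replicate number were alike in width (291 and 274 bp in replicate 1, 1885 and 1563 bp in replicate 2). The merged region (chr13:73936584-73938716) also takes in an end of Trip13, so it cannot be given to Brd9 alone.

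The PBAF genes were less uniform. Pbrm1 (BAF180) ranked 20359 and 308 in LSC and 25009 and 4008 in HSC. A peak at its start, shared with an end of Gnl3, was present in all 4 libraries, at ranks 23342 and 308 in LSC and 25009 and 4008 in HSC, and so was listed in replicate 2 alone. Arid2 (BAF200) ranked 10729 and 47302 in LSC and 1738 and 6604 in HSC. Listed peaks of all 4 libraries overlapped each other outside an annotated end of Arid2 (chr15:96285273-96286839), a stretch shared with an end of Gm38469, and the LSC replicate 2 peak, at rank 2437, fell just outside the 1 kb flank. Brd7 was listed in HSC replicate 2 alone, at rank 16863. Phf10 was listed nowhere, with ranks of 43462 and 45508 in LSC and 49721 and 111540 in HSC.

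**Figure D4:**
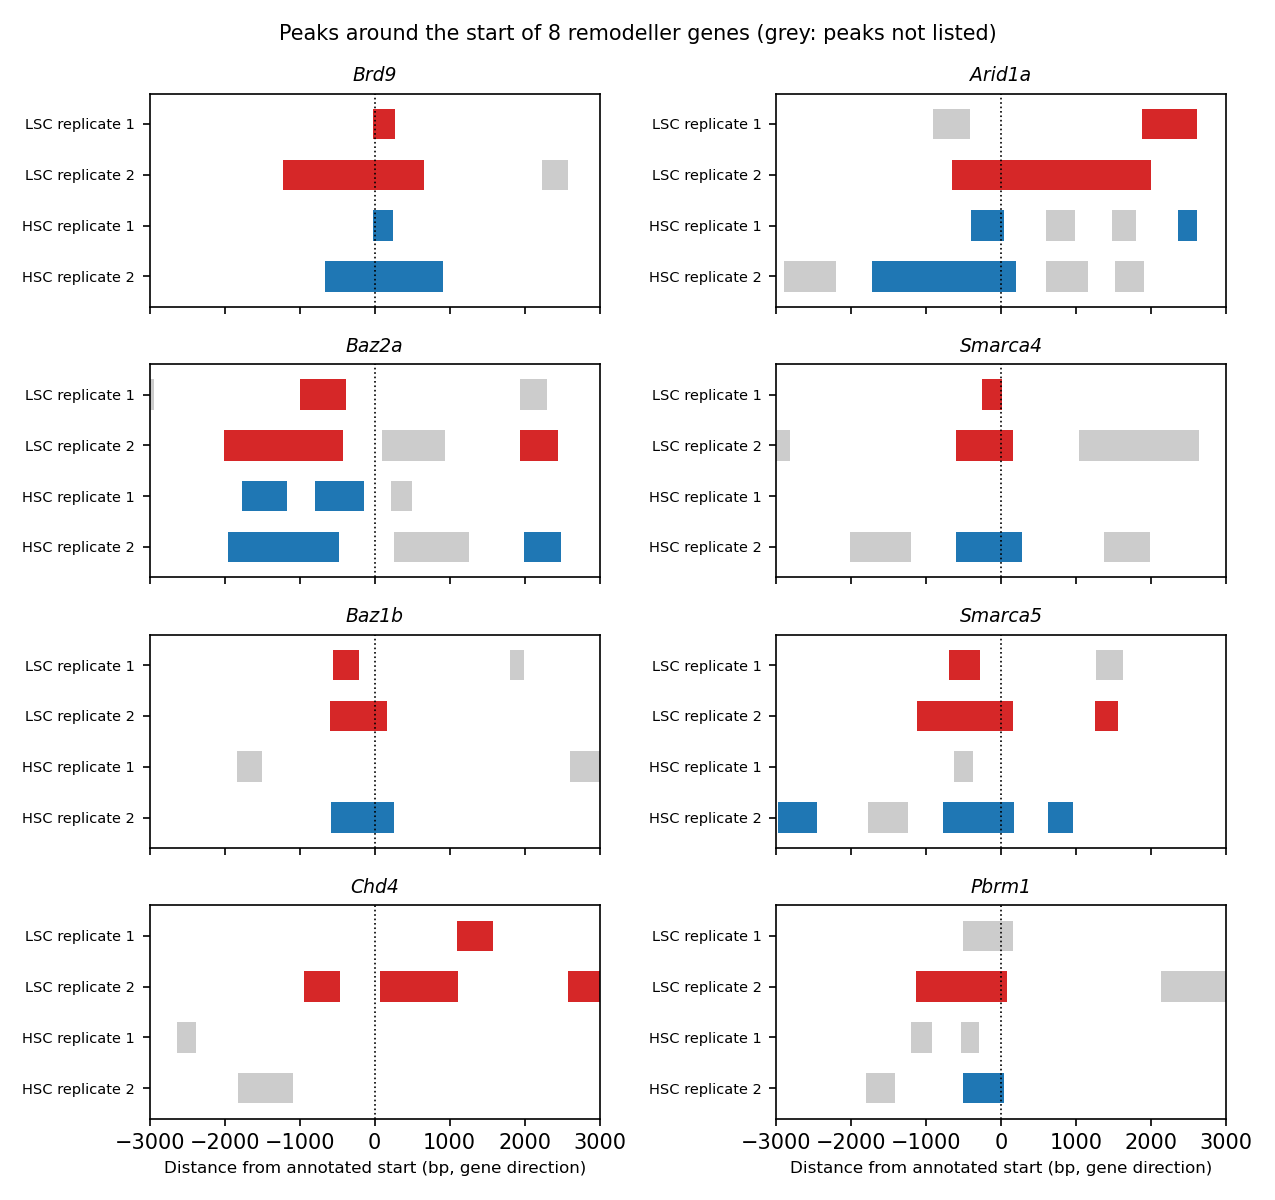
Extent of peaks around the annotated start of 8 genes (x, bp from the start in the direction of the gene) in LSC (upper rows, red) and HSC (lower rows, blue) libraries, with unlisted peaks in grey. Brd9 has a listed peak over its start in all 4 libraries, Smarca4 and Baz1b have one over or just before it in all but HSC replicate 1, and Chd4 has listed peaks in LSC alone.

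In the CHD family, Chd2, which acts with transcribed chromatin, carried the strongest common site. It ranked 1135 and 1313 in LSC and 651 and 137 in HSC, with folds of 92.1 and 44.9 in LSC and 64.5 and 74.3 in HSC. The 4 peaks overlapped in every pair inside the gene (chr7:73536888-73538315), 3431 bp from its higher-coordinate end. Chd7, mutated in CHARGE syndrome in humans, ranked 9665 and 9271 in LSC and 3019 and 14880 in HSC and also had an intragenic site (chr4:8854111-8855001) that all 4 libraries shared in every pair. Chd6 ranked 3479 and 4071 in LSC and 19482 and 2046 in HSC and had no listed site in common among more than 2 libraries. Chd9 ranked 174 and 2499 in LSC and 9374 and 11042 in HSC. Both LSC libraries shared 2 listed Chd9 sites that neither HSC library listed. One (chr8:90875957-90876899, ranks 3486 and 2499 in LSC) had no HSC peak of any strength, and the other (chr8:90907684-90908405, ranks 174 and 4292 in LSC) had an HSC replicate 1 peak at rank 73838.

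Chd4, the NuRD ATPase, was the only one of the 36 genes listed in both LSC libraries and in neither HSC library. With the 10000 strongest peaks, with the full lists and at the gene ends alone it no longer was. It ranked 12508 and 964 in LSC, with folds of 35.7 and 50.4, and 73535 and 50177 in HSC, with folds of 13.9 and 9.92. The LSC peaks lay side by side downstream of the start (chr6:125096047-125097554), with summits 1308 and 66 bp from the nearest start. They shared only 22 bp and their summits were 1242 bp apart, so they are 1 merged region more than 1 common peak. No HSC peak of any strength lay in that region. The nearest HSC peaks lay upstream, ending at -2384 (replicate 1, rank 46321) and -1094 bp (replicate 2, rank 50176) from the first annotated start. As a share of the set this single gene (2.78%) was near the background of 2.35% for all genes. Its relative Chd3 was listed nowhere, with ranks of 109715 and 43390 in LSC and 121918 and 33786 in HSC. Chd8 was listed in the replicate 2 libraries alone (7434 in LSC, 4010 in HSC), with a shared region at the end it has in common with Supt16, and Chd1 in LSC replicate 1 (11857) and HSC replicate 2 (7164).

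Of the ISWI ATPases, Smarca5 ranked 7450 and 739 in LSC and 60315 and 910 in HSC. All of its best peaks lay around the start, with summits at -341 and -715 bp in LSC and at -503 and 31 bp in HSC, so HSC replicate 1 had the same site at lower strength. Smarca1, which lies on the X chromosome, was listed nowhere: LSC replicate 1 had no peak, LSC replicate 2 ranked 82179, and HSC ranked 91273 and 45244. The X chromosome held 2.65% and 3.94% of all peaks in LSC and 2.79% and 4.27% in HSC, and the part of that in the values of Smarca1 and Atrx was not tested.

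The large ISWI partners were listed in most libraries. Baz1b (WSTF) ranked 233 and 948 in LSC and 38599 and 1156 in HSC, with folds of 138 and 50.6 in LSC and 18.04 and 30.7 in HSC. The 3 strong peaks overlapped at the start (chr5:135186728-135187578), where HSC replicate 1 had no peak. Baz2a (TIP5), the partner that silences ribosomal DNA, ranked 6152 and 616 in LSC and 291 and 1491 in HSC, with all 4 libraries listed upstream of the start in the promoter table (chr10:128090769-128092644) in a stretch that also takes in an end of Atp5b. Between the strongest peaks of each library there, 5 of 6 pairs overlapped. A second listed peak of HSC replicate 1 (rank 2696, from -800 to -139 bp) overlapped the LSC replicate 1 peak. Listed peaks of all 4 libraries thus overlapped before the promoter-table start, without covering it. The annotated gene begins further upstream, at 128091370. The strongest peaks of LSC replicate 2 and HSC replicates 1 and 2 covered that position, while that of LSC replicate 1 began at 128091787. Bptf, the NURF subunit, ranked 3325 and 8221 in LSC and 10186 and 3518 in HSC, always inside the gene and at different places. Baz1a (ACF1) ranked 2772 and 22563 in LSC and 8029 and 4841 in HSC, and an intragenic site (chr12:54992339-54994079) was listed in every library but LSC replicate 2.

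The remaining SNF2-like genes had few strong peaks. Atrx ranked 1389 and 21662 in LSC and 58069 and 31381 in HSC. Smarcad1 ranked 77864 and 29318 in LSC and 78986 and 15829 in HSC. Hells (LSH), known for its part in DNA methylation, ranked 23791 and 191965 in LSC and 120227 and 54991 in HSC and was listed nowhere.

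Taking LSC against HSC at each replicate number, the calls of listed genes showed no repeated direction beyond the genes already named. Listed peaks at the 36 genes numbered 60 in LSC and 38 in HSC at replicate 1, and 53 and 51 at replicate 2. Their values per 100 kb, beside those of all genes, are given above. At replicate 1, 6 genes were listed in LSC and not HSC (16.7%, beside 15% of all genes) and 5 in HSC and not LSC (13.9%, beside 12.9%). Both listed 13 (36.1%, beside 17.3%). At replicate 2 the counts were 1 (2.78%, beside 12.4%), 10 (27.8%, beside 12.4%) and 18 for both (50.0%, beside 28.8%). Chd4 was the gene in the LSC direction at both numbers, and Smarcc2 and Smarcd3 were those in the HSC direction (5.56%, beside 2.09%). The mean number of listed genes was 19 ± 0 in LSC and 23 ± 7.07 in HSC (SD, n = 2 each), and the difference of -4 was smaller than the spread between the HSC libraries. With 2 libraries against 2, an exact permutation test cannot give a two-sided p below 0.333, so no difference between the cell types could pass 0.05. By replicate number, 3 genes (Dpf2, Pbrm1 and Chd8; 8.33%, beside 7.3%) were listed in both replicate 2 libraries alone, and 0 in both replicate 1 libraries alone (beside 1.93%). The replicate numbers also differed in peak width and Y chromosome share, as given above, and the part of these in such counts was not tested.

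Counting sites in place of genes gave a smaller overlap. The listed peaks at the 36 genes merged into 154 regions at 31 genes. Of these, 129 lay inside a gene, 16 at a promoter-table start and 9 at an annotated end not classed as a start. A single library supplied 126 of them (81.8%, beside 85.8% of all regions in protein-coding genes). All 4 libraries shared 6 regions (3.90%, beside 1.6%), at Arid1a, Arid2, Baz2a, Brd9, Chd2 and Chd7. Of those 6, 3 were start sites, and of the 126 regions from a single library 5 were. A start could be classed only at genes with a promoter entry, which Arid2, Chd2 and Chd7 lack. The share of start sites over all regions is not given for comparison. Smarca2, Smarca4, Arid1b, Chd6, Chd9 and Bptf, though listed in all 4 libraries, had no region that all 4 shared. Regions shared by both LSC libraries and neither HSC library numbered 4 (2.60%, beside 0.838%), at Arid1b, Chd4 and Chd9 (2 regions). Regions shared by both HSC libraries and neither LSC library numbered 0 (beside 0.933%). Both replicate 2 libraries alone shared 7 regions (4.55%, beside 5.26%), 4 of which were at starts, those of Smarcb1, Pbrm1, Dpf2 and Chd6. Both replicate 1 libraries alone shared 0 (beside 0.523%). A region in the 300 bp promoter window was listed for 4 and 11 of 28 genes in LSC and for 3 and 11 in HSC, beside 6.87% and 20.8% of all genes with an entry in LSC and 6.28% and 20.6% in HSC. Arid1a and Brd9 had one in all 4 libraries (7.14%, beside 2.08%), and 14 genes had none in any (50.0%, beside 70.1%).

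For comparison, 38 other remodeller genes that are not in the set gave 25 and 29 listed in LSC (65.8% and 76.3%, beside 32.3% and 41.2% of all genes) and 18 and 31 in HSC (47.4% and 81.6%, beside 30.2% and 41.2%). In all 4 libraries 13 were listed (34.2%, beside 11.3%). These were the SWI/SNF genes Actl6a, Dpf3, Bicra and Bicral, the NuRD partners Hdac1, Hdac2, Mta1, Mta3 and Gatad2a, the ISWI partners Rsf1 and Baz2b, and the SNF2-like genes Zranb3 and Ercc6. Chrac1, a small ISWI subunit, was the only one listed in both LSC libraries and neither HSC library, and is named after its values were seen, at ranks 17755 and 17082 in LSC and 80655 and 41168 in HSC. As 1 of 38 genes (2.63%) it was near the background of 2.35%. None was listed in both HSC libraries alone. The 9 other SWI/SNF genes gave 5 and 7 in LSC and 5 and 7 in HSC, with no separation of the cell types. Of the 11 NuRD partners, 6 and 10 were listed in LSC (54.5% and 90.9%) and 8 and 10 in HSC (72.7% and 90.9%), 5 of them (45.5%) in all 4 libraries. Gatad2a ranked 634 and 185 in LSC and 13732 and 1112 in HSC.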

How the data were processed

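CUT&Tag peak lists of 2 LSC and 2 HSC libraries were used as deposited. The submitters' processing notes name FastQC 0.11.5, Bowtie2 2.2.9, MACS2, ChIPseeker and the build mm10. How peaks were thresholded, reads filtered and duplicates treated is not given in the sources used here. The deposited fold is the ratio of the pileup at a summit to the background in that library. Each peak also has a deposited −log10 p and, adjusted over its list, a deposited −log10 q. The deposited score equals the −log10 q times 10, cut to a whole number, for nearly all peaks, and the deposited summit column is a distance from the peak start. Per the labels' protocols, each library was amplified over 17 to 20 PCR cycles.

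Autosomal, X and Y peaks were used, of records with the same extent only the strongest counted, and each library's 20000 highest peaks by −log10 p were taken as listed. Genes were matched by symbol. Peaks overlapping the gene body plus 1000 bp by at least 1 bp were assigned to it, a start site meant within 1000 bp of a start in the RefSeq promoter table, and overlapping listed peaks were merged into regions. Python 3.11.15 with pandas 2.3.3 and numpy 2.4.6 was used, and the overlap step was tested on simulated data. No set test was run. The members, families, roles, motifs and comparison lists were chosen with earlier results of these data known. Named with values were genes listed in all 4 libraries, in both of 1 cell type alone or in none, and the 3 of each family with the best worst rank; the other members are given by rank. The split at 50 kb was added after the data were seen.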

Additional observations from a re-analysis of the deposited data

How the results depend on the processing

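With the 10000 strongest peaks (HSC-only genes then Smarcc2 and Arid2), genes listed in all 4 libraries fell to 6 (1 CHD, 1 ISWI), LSC-only genes to 0, replicate 1 HSC-not-LSC genes to 3, and replicate 2 genes became 5 LSC-not-HSC and 5 HSC-not-LSC. With the 40000 strongest, 4 ISWI genes were in all 4, HSC-only genes fell to 0, and replicate 2 HSC-not-LSC genes to 6. With the full lists 33 genes were in all 4 (17 SWI/SNF, 8 CHD, 5 ISWI, 3 SNF2-like), the libraries listed 35 and 36 (LSC) and 34 and 36 (HSC), LSC-only and HSC-only genes were both 0, replicate 1 gave 2 LSC-not-HSC and 1 HSC-not-LSC, and replicate 2 gave 0 and 0. At gene ends alone 2 genes were in all 4 (1 SWI/SNF, 0 CHD, 1 ISWI), the libraries listed 7 and 14 (LSC) and 6 and 17 (HSC), LSC-only and HSC-only genes were 0, and HSC-not-LSC genes numbered 3 and 5 at replicates 1 and 2, with 2 LSC-not-HSC at replicate 2. With flanks of 3000 bp HSC-only genes fell to 1 (Smarcd3). The mean LSC minus HSC difference changed sign or vanished with the 10000 (1.5), the 40000 (0) and the full lists (0.5). Ranking by fold gave the same 20000 peaks, and no flank, at least 50% overlap or the summit in the window changed no count by over 1.5 times.

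Leaving out each library in turn gave 11 to 13 genes listed in all the others (ISWI 2 to 4), 1 to 3 LSC-only genes, 3 to 6 HSC-only genes and a difference of -9 (without HSC replicate 1) to 1 (without HSC replicate 2). With a replicate block, that is within replicate numbers, the differences were 1 and -9 with the same mean of -4, and no call changed. The cause of these shifts was not tested. Depth is unknown, so an unlisted gene is not shown to lack binding, and with 2 libraries a group the spread may be technical. No blacklist was applied.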
